A study of Mus musculus with 24 samples.

Results

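Expression of 3 topoisomerase genes (Top1, Top2a, Top2b) and 7 nucleotide excision repair genes (Xpa, Xpc, Ercc1 to Ercc5) was examined in CD45+ cells from mouse tumors treated with HER2-directed antibodies. The 10 genes were chosen by name, as enzymes that act on DNA torsion and on bulky DNA lesions, and all 10 were among the 16996 genes with values. Tumors grew from EMT6-hHER2, a mouse breast cancer line made by inserting human HER2 with a PiggyBac transposon vector that carries a PGK promoter. The line was taken as a clone sorted from 1 cell and injected into the mammary fat pad of female Balb/c mice with a WT genotype. The mice were 8 to 10 weeks old at injection, and the age given for the samples is 10 to 12 weeks. At 80 mm3 the tumors of 6 mice each received no treatment, trastuzumab at 20 mg/kg, 15 mg/kg of T-DM1, or T-PNU at 1 mg/kg. CD45+ cells were enriched with beads on day 10, with 1 library per mouse and 24 libraries in all. By the study's methods, T-PNU tumors were smaller at harvest than at treatment. Harvest sizes of the other groups are not given separately, and tumor size was not taken into account. Trastuzumab is an antibody against human HER2, T-DM1 is trastuzumab carrying a maytansinoid that blocks microtubules, and T-PNU is trastuzumab carrying an anthracycline derivative. The column labels number the untreated libraries in another series than the treated ones, and what the numbers stand for is not stated. Series and treatment cannot be told apart wherever untreated mice are compared. Each treated group also holds its own unbroken run of these numbers, so their order and treatment cannot be told apart in the other comparisons either.

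Topoisomerases relieve the torsion that replication and transcription put into DNA: Top1 cuts a single strand, whereas Top2a and Top2b cut both strands and pass a second duplex through the gap. Top2a is made mainly by dividing cells, Top2b also by resting ones, and the classical anthracyclines trap both on DNA. In nucleotide excision repair, Xpc recognizes a distorted helix, the TFIIH helicases Ercc2 (Xpd) and Ercc3 (Xpb) open it, Xpa verifies the lesion, the nuclease Ercc1-Ercc4 (Xpf) cuts on the 5′ side and Ercc5 (Xpg) on the 3′ side.

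Values were log2 expression normalized for library size. The leukocyte genes Ptprc, which encodes CD45, Coro1a, Laptm5, Lcp1 and Cd53 lay between percentiles 97.6 and 99.7 of all genes by mean, with Ptprc at 14.69. Collagen and keratin genes of tumor and stromal cells were also high, with Col1a2 at a mean of 15.16 and Krt8 at 13.01, so RNA typical of other cells was present, and its source was not tested. The study checked the purity of the enriched cells by flow cytometry. In bulk RNA of this kind, fewer cells of a type and less RNA per cell cannot be told apart. Untreated libraries B1 and C1 and trastuzumab libraries E2 and B3 (plate positions as labelled) are absent from the study's heatmaps, and B1, E2 and T-PNU library C2 lay highest on the first principal component of the 1000 most variable genes, which held 71.9% of their variance. Results are therefore given for all 24 libraries and for the 20 without B1, C1, E2 and B3. Within their groups B1, C1, E2 and B3 had the lowest Top2a and Ercc1 and the highest Ercc5 values. No T-PNU or T-DM1 library was left out. Dropping these libraries therefore by itself moves the untreated and trastuzumab means of these genes away from T-PNU, so the 20 are not a neutral set.

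The promoters of Top2a and Top2b are shown because these were the topoisomerase genes that passed a test. RefSeq promoter sequence (GRCm38.p6) was found for 8 of the 10 genes. Within the 250 bases before the start, 4 motifs were searched on both strands: CCAAT (the CCAAT box), TTTGAA (the core of the cell cycle homology region), GGGCGG (the GC box) and CACGTG (the E box). Capitals mark CCAAT and TTTGAA or their complements in the Top2a window (chr11:99024190-99024439, minus strand) and in the Top2b window, which was cut before the first annotated base of the gene (chr14:16364956-16365178, plus strand).
Top2a: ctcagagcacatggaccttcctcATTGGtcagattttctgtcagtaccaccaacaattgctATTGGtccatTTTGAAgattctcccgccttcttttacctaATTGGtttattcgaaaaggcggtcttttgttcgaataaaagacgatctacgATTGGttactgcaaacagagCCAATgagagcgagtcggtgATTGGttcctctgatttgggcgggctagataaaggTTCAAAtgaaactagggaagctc
Top2b: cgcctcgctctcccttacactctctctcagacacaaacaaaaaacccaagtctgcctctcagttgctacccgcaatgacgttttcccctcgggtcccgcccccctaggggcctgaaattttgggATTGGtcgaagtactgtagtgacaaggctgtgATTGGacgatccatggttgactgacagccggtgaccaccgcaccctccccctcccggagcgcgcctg
Top2a held 6 matches to CCAAT, the first bases of which lay at -227, -189, -149, -98, -78 and -58 from the start, and 2 matches to TTTGAA at -179 and -23, a number that 1.81% of promoters reached. Of 32851 promoters of the same length, 33.8% held CCAAT and 0.0578% held it 6 or more times. Top2b held 2 matches to CCAAT, as 10.1% of promoters did at least, and none to TTTGAA, which 16.0% of promoters held. Ercc2 held 3 matches to CCAAT, a number that 2.79% of promoters reached. Among the 8 genes searched, CCAAT occurred in 6, TTTGAA in 2, GGGCGG in 5 and CACGTG in 1, against 32.7% of all promoters for GGGCGG and 6.02% for CACGTG. No overlap between CCAAT and TTTGAA occurred in the windows printed.

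The 10 genes lie on 9 chromosomes of GRCm38 (mm10; GENCODE M21 gene bounds). Top1 is at chr2:160645888-160722764 and Top2b at chr14:16365179-16435462 on the plus strand, and Top2a at chr11:98992943-99024189 on the minus strand. Xpc (chr6:91489305-91515888) and Xpa (chr4:46155347-46196311) are on the minus strand. Ercc1 (chr7:19344778-19356524) and Ercc2 (chr7:19382010-19395694) are near neighbours on the plus strand, where Ercc3 (chr18:32240300-32270151), Ercc4 (chr16:13109684-13150617) and Ercc5 (chr1:44147744-44181260) also lie. Values are per whole gene, not per exon or isoform.

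Mean log2 levels per kilobase of merged exons allow only a rough comparison of genes. Exons of all annotated transcripts count, and the transformation of the values is not given. On this scale Top2a (9.76) and Top1 (9.72) were highest of the 10 genes, followed by Ercc3 (9.48), Ercc1 (8.71) and Top2b (8.07). Ercc2 (7.38), Xpa (7.27), Ercc5 (6.75), Xpc (6.30) and Ercc4 (5.89) were lower. The incision partners Ercc1 and Ercc4, which form 1 nuclease, thus stood far apart on this scale. The spread over the 24 libraries was widest for Ercc1, whose SD of 0.51 lay at percentile 91.5 of all genes, and narrowest for Ercc3, whose SD of 0.08 lay at percentile 0.741.

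**Figure D1:**
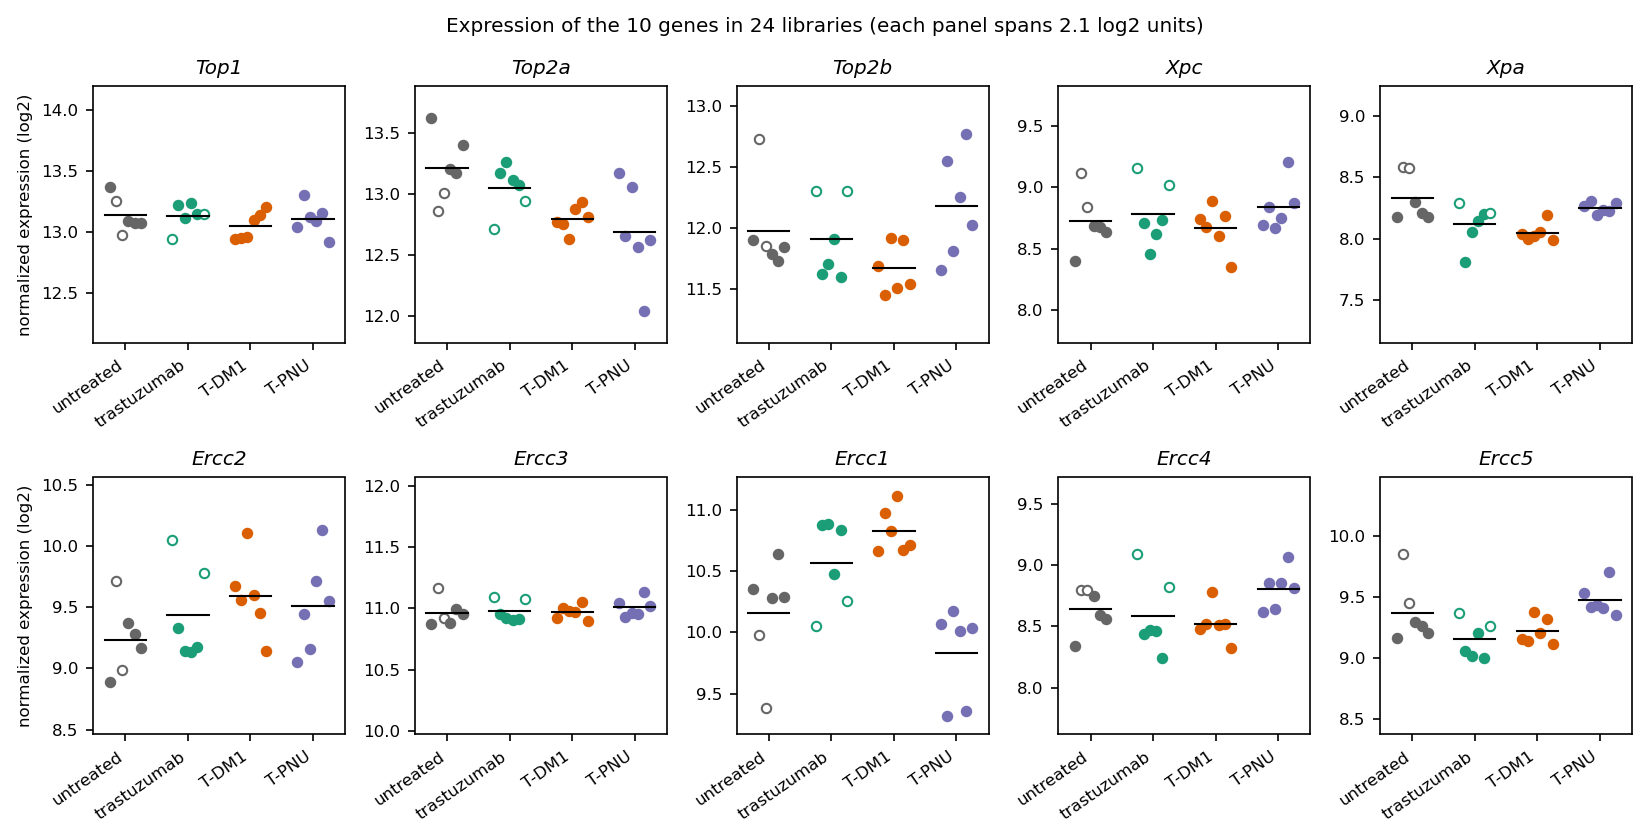
Normalized log2 expression (y axis, 2.1 log2 units in every panel) of the 10 genes by treatment group, with 1 point per library, open points for the 4 libraries left out of the 20, and bars for the group means of 6 libraries. Ercc1 shows T-DM1 points between 10.67 and 11.11 above all T-PNU points, between 9.32 and 10.18, and Ercc3 and Top1 stay nearly level.

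With all 24 libraries, an adjusted p under 0.05 (limma, Benjamini-Hochberg over all genes) was reached by 0 of the 10 genes between T-PNU and untreated, where 0.188% of all genes reached it, and by 0 between T-PNU and trastuzumab, where 0.00588% did. Unadjusted p-values were under 0.05 for 1 and 3 of the 10 genes in these comparisons, against 24.8% and 19.5% of all genes. Between T-PNU and T-DM1, 2 of 10 passed (Ercc1 lower and Top2b higher with T-PNU) against 29.8% of all genes. Between T-DM1 and untreated, 2 of 10 passed (Ercc1 higher and Xpa lower with T-DM1) against 6.27% of all genes. Between trastuzumab and untreated, where 0.259% of all genes passed, and between T-DM1 and trastuzumab, where 0.647% did, 0 of 10 passed, with 3 and 0 at an unadjusted p under 0.05 against 8.77% and 15.3% of all genes. In a limma F test over the 4 groups, Ercc1 (adjusted p = 0.00871) and Top2a (0.0426) passed, as did 18.8% of all genes.

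With the 20 libraries, 3 of 10 genes passed between T-PNU and untreated (Top2a and Ercc1 lower, Ercc5 higher; 31.1% of all genes), 5 between T-PNU and trastuzumab (Top2a and Ercc1 lower, Top2b, Ercc4 and Ercc5 higher; 28.0%) and 5 between T-PNU and T-DM1 (Ercc1 lower, Top2b, Xpa, Ercc4 and Ercc5 higher; 39.9%). None of the 10 passed between T-DM1 and untreated (2.01% of all genes), trastuzumab and untreated (0 of 16996 genes, 0%) or T-DM1 and trastuzumab (0.812%), while 4, 1 and 2 of the 10 genes had an unadjusted p under 0.05, against 18.1%, 5.09% and 14.1% of all genes. The F test called 6 of 10 (Ercc1, Ercc5, Top2a, Ercc4, Top2b and Xpa) against 40.8% of all genes. The 3 comparisons with T-PNU share their 6 T-PNU libraries.

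**Figure D2:**
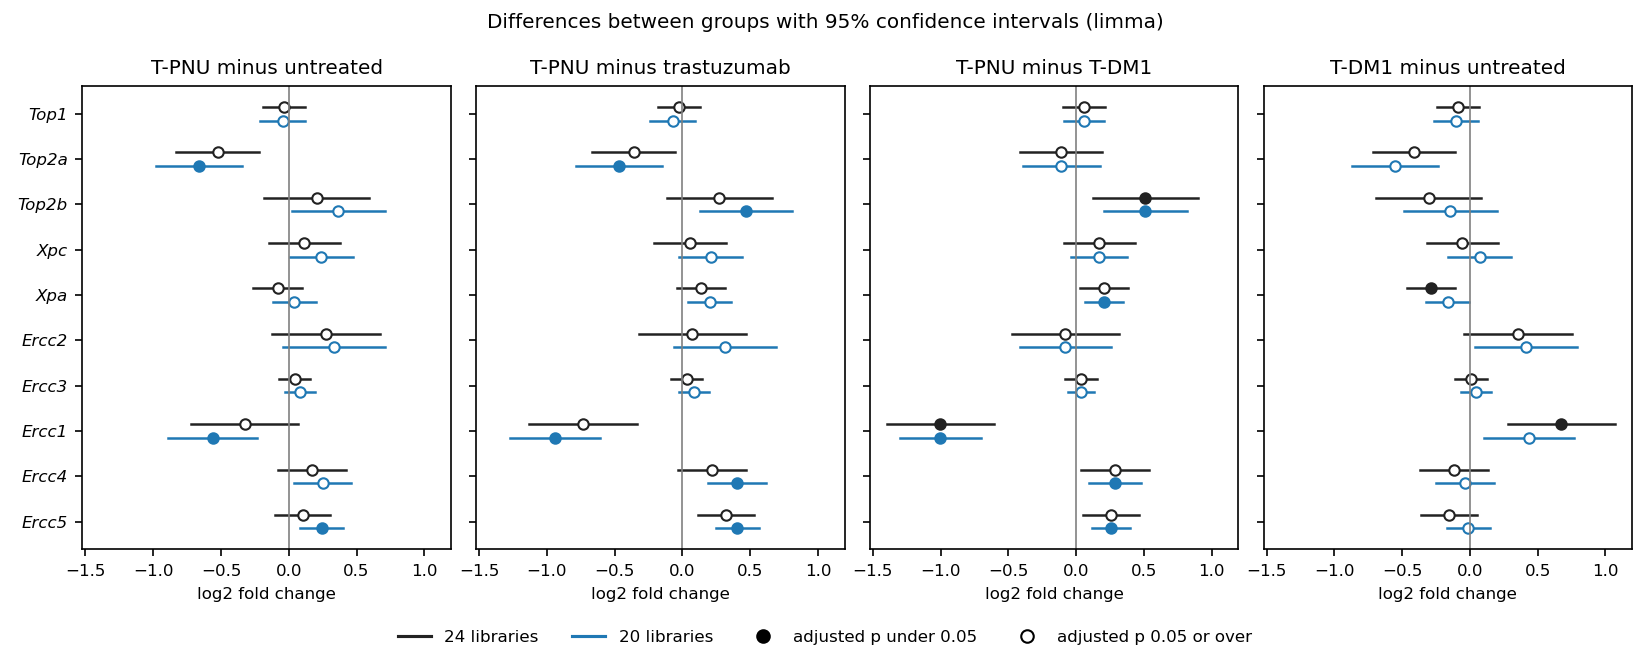
Log2 fold changes (x axis) of the 10 genes in 4 comparisons, with 95% confidence intervals from limma, for 24 libraries (black) and 20 libraries (blue); filled points have an adjusted p under 0.05. Ercc1 lies farthest from 0 between T-PNU and T-DM1, at -1.0 with both sets of libraries.

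Top2a, the topoisomerase II of dividing cells, ranged from 12.86 to 13.62 in untreated libraries (median 13.19), from 12.71 to 13.27 with trastuzumab (13.09), from 12.64 to 12.93 with T-DM1 (12.79) and from 12.04 to 13.17 with T-PNU (12.64). The T-PNU libraries were the most spread: G1 and A2 lay with the untreated ones at 13.17 and 13.06, while C2 was the lowest of all 24. The study sets high-responding T-PNU samples apart from low-responding ones. The sample labels do not name them, all T-PNU libraries were kept together here, and a link of the spread with response was not tested. The mean fell from 13.21 ± 0.27 (SD, n = 6) without treatment to 12.69 ± 0.40 with T-PNU, a log2 fold change of -0.52 ± 0.15 (SE) that missed the threshold with 24 libraries (adjusted p = 0.0696, limma) and passed it with 20 (-0.66 ± 0.15, adjusted p = 0.00644). Over the 30 alternatives its adjusted p ran from 0.00147 to 0.206. Leaving out T-PNU library G1 (0.0326) or A2 (0.0484), or untreated library C1 (0.0190), was enough to bring it under 0.05. Against trastuzumab the change with T-PNU was -0.36 ± 0.15 (adjusted p = 0.207) with 24 libraries and -0.47 ± 0.15 (0.0307) with 20, and the adjusted p ran from 0.0307 to 0.473 over the alternatives.

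T-DM1 libraries had a narrower range for Top2a, and with the 20 libraries all 6 lay below the 4 untreated and below the 4 trastuzumab values. Groups did not overlap for 6.34% and 3.95% of all genes in these comparisons. The log2 fold change between T-DM1 and untreated was -0.41 ± 0.15 with 24 libraries (adjusted p = 0.0909) and -0.55 ± 0.15 with 20 (0.0641), neither past the threshold.

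Top2b, the isoform that resting cells also make, ranged from 11.74 to 12.73 in untreated libraries (median 11.85), from 11.60 to 12.31 with trastuzumab (11.81), from 11.45 to 11.92 with T-DM1 (11.62) and from 11.66 to 12.77 with T-PNU (12.14). The highest values were those of T-PNU C2 and untreated B1, and the groups overlapped. T-PNU exceeded T-DM1 by 0.51 ± 0.19 (SE) on the log2 scale, or 1.42-fold (adjusted p = 0.0434 with 24 libraries and 0.0107 with 20, limma; 0.00535 to 0.122 over the alternatives). This call with 24 libraries was lost when T-DM1 library C3 (0.0575), D3 (0.0891), F3 (0.0874) or H3 (0.0727), or T-PNU library H1 (0.114), B2 (0.0726) or C2 (0.122), was left out, and under quantile normalization (0.0524). Against trastuzumab the log2 difference was 0.27 ± 0.19 (adjusted p = 0.393) with 24 libraries and 0.47 ± 0.16 (0.0407) with 20, and over the alternatives of that comparison the adjusted p ran from 0.0407 to 0.716.

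Top1, which cuts a single strand, varied little. It ranged from 12.98 to 13.37 in untreated, 12.94 to 13.23 in trastuzumab, 12.94 to 13.20 in T-DM1 and 12.92 to 13.30 in T-PNU libraries, with medians of 13.08, 13.15, 13.03 and 13.11. Between T-PNU and untreated the log2 difference was -0.03, with a 95% confidence interval from -0.19 to 0.12, and no comparison of Top1 passed.

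Xpc, the lesion sensor, ranged from 8.39 to 9.12 in untreated libraries (median 8.68), 8.46 to 9.16 with trastuzumab (8.72), 8.35 to 8.89 with T-DM1 (8.71) and 8.67 to 9.21 with T-PNU (8.79). The highest values were in T-PNU C2, trastuzumab E2 and untreated B1, and no comparison passed with 24 or 20 libraries. The log2 difference between T-PNU and untreated was 0.11 (95% confidence interval -0.15 to 0.38) with 24 libraries and 0.24 (0.01 to 0.47, adjusted p = 0.102) with 20.

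Xpa, the verification factor, ranged from 8.17 to 8.58 in untreated libraries (median 8.25), 7.81 to 8.29 with trastuzumab (8.17), 7.99 to 8.19 with T-DM1 (8.03) and 8.19 to 8.31 with T-PNU (8.25). All 6 T-PNU values lay above all 6 T-DM1 values, by a margin of less than 0.01 between T-PNU A2 (8.195) and T-DM1 G3 (8.194). The log2 difference was 0.21 ± 0.09 (SE), with an adjusted p of 0.0743 with 24 libraries and 0.0219 with 20 (limma; 0.0202 to 0.135 over the alternatives). Xpa was lower with T-DM1 than without treatment by -0.29 ± 0.09 on the log2 scale (adjusted p = 0.0490; 0.0242 to 0.258 over the alternatives), and this call held in 7 of the 24 fits that left out 1 library. It ended without untreated B1 (0.0985) or C1 (0.112), which had the highest Xpa values of all libraries at 8.58, and without both, in the 20 libraries, the difference was -0.16 ± 0.08 (0.258). It also ended, at an adjusted p from 0.0526 to 0.107, without untreated A1 or D1, trastuzumab G2, H2, A3 or B3, T-DM1 C3, D3, E3, F3 or H3, or T-PNU G1, A2, B2 or D2, and in a fit of only the 2 groups compared (0.106). Exons of Xpa overlap those of Ncbp1 on the opposite strand, and reads were counted by strand.

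Of the TFIIH helicases, Ercc3 had nearly the same level everywhere, from 10.87 to 11.17 over the 24 libraries, and its group means ran from 10.96 to 11.01. Between T-PNU and untreated its log2 difference was 0.04 (95% confidence interval -0.07 to 0.16). Ercc2, its partner of opposite polarity, ranged from 8.89 to 9.71 in untreated libraries (median 9.22), 9.14 to 10.05 with trastuzumab (9.25), 9.14 to 10.11 with T-DM1 (9.58) and 9.05 to 10.13 with T-PNU (9.49). High values occurred in every group (untreated B1, trastuzumab E2, T-DM1 E3 and T-PNU C2), the groups overlapped, and no comparison of Ercc2 passed. The log2 difference from untreated libraries was 0.36 ± 0.19 (SE) with T-DM1 (adjusted p = 0.268) and 0.28 ± 0.19 with T-PNU (0.354).

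Ercc1, the subunit that anchors the 5′ nuclease to DNA, differed most among the 10 genes. Its values ranged from 9.38 to 10.64 in untreated libraries (median 10.29), 10.06 to 10.89 with trastuzumab (10.66), 10.67 to 11.11 with T-DM1 (10.77) and 9.32 to 10.18 with T-PNU (10.02). All 6 T-DM1 values exceeded all 6 T-PNU values and all 6 untreated values. Including Xpa, 2 of the 10 genes did not overlap between T-PNU and T-DM1, against 13.2% of all genes, and 1 did not between T-DM1 and untreated, against 3.33%. T-PNU libraries H1 (9.32) and C2 (9.36) and untreated library C1 (9.38) were the lowest.

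The log2 fold change of Ercc1 between T-PNU and T-DM1 was -1.0 ± 0.19 (SE), so that its expression was 2.0-fold lower with T-PNU (adjusted p = 0.00183, limma). This call held in all 30 alternatives, with adjusted p-values from 5.06e-05 to 0.00713. Between T-DM1 and untreated Ercc1 rose by 0.68 ± 0.19 (adjusted p = 0.0386) with 24 libraries and showed a difference of 0.44 ± 0.16 (0.147) with 20, and its adjusted p ran from 0.00392 to 0.147 over the alternatives. With 24 libraries this call ended without untreated A1 (0.0562), B1 (0.0642), C1 (0.0919) or F1 (0.0532), or without T-DM1 C3 (0.0520), D3 (0.0915), E3 (0.0793) or F3 (0.0932). In the 20 libraries all 6 T-PNU values were below all 4 untreated values and all 4 trastuzumab values. The log2 fold changes were -0.56 ± 0.16 (adjusted p = 0.0151) and -0.94 ± 0.16 (0.00400) there, against -0.33 ± 0.19 (0.281) and -0.74 ± 0.19 (0.129) in the 24. Over the alternatives these adjusted p-values ran from 0.0151 to 0.527 and from 0.00400 to 0.322, and against trastuzumab the fit without untreated C1 gave 0.0484. By group mean the order was T-DM1 (10.83), trastuzumab (10.57), untreated (10.16) and T-PNU (9.83), and with 24 libraries no neighbours in this order differed past the threshold. Exons of Ercc1 overlap those of Cd3eap on the opposite strand.

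Ercc4, which carries the active site of the same nuclease, ranged from 8.34 to 8.80 in untreated libraries (median 8.67), 8.24 to 9.09 with trastuzumab (8.47), 8.33 to 8.78 with T-DM1 (8.52) and 8.62 to 9.07 with T-PNU (8.83). With 24 libraries its differences had the opposite sign to those of Ercc1 in all 6 comparisons, and with 20 both were positive between T-DM1 and trastuzumab (0.12 for Ercc4 and 0.06 for Ercc1). T-PNU exceeded T-DM1 by 0.29 ± 0.12 (SE) on the log2 scale (adjusted p = 0.0753 with 24 libraries and 0.0178 with 20, limma; 0.0173 to 0.174 over the alternatives). Without trastuzumab library E2, which held the highest Ercc4 value, the adjusted p with the other libraries was 0.0404. T-PNU exceeded trastuzumab by 0.22 ± 0.12 (0.304) in 24 libraries and 0.40 ± 0.10 (0.0131) in 20, with adjusted p-values from 0.0131 to 0.569 over the alternatives.

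Ercc5, the 3′ nuclease, ranged from 9.17 to 9.85 in untreated libraries (median 9.28), 9.0 to 9.37 with trastuzumab (9.13), 9.11 to 9.38 with T-DM1 (9.18) and 9.36 to 9.70 with T-PNU (9.42). Untreated B1 held the highest value and C1 the highest of the other untreated libraries. Without them and trastuzumab E2 and B3, all 6 T-PNU values exceeded all 4 untreated and all 4 trastuzumab values. Together with Ercc1, 2 of the 10 genes did not overlap between T-PNU and untreated in the 20 libraries (15.9% of all genes), and with Ercc1 and Ercc4, 3 did not between T-PNU and trastuzumab (10.6%). The log2 difference of Ercc5 was 0.24 ± 0.08 (SE) from untreated (adjusted p = 0.0233, limma) and 0.40 ± 0.08 from trastuzumab (0.00574) in the 20 libraries, against 0.10 ± 0.10 (0.505) and 0.32 ± 0.10 (0.156) in the 24. Over the alternatives the adjusted p ran from 0.0233 to 0.773 and from 0.00574 to 0.365. Between T-PNU and T-DM1 it was 0.26 in both, with an adjusted p of 0.0538 with 24 libraries and 0.00649 with 20 (0.00649 to 0.133 over the alternatives). It also passed without T-DM1 E3 (0.0457), trastuzumab E2 (0.0485) or untreated B1 (0.0160).

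Levels of marker lists moved with these genes. A list level is the log2 value of its genes after subtracting each gene's mean of 24 libraries, averaged over the list, and 30 relations (10 genes with 3 lists) were computed, with permutation p-values from 100000 resamples adjusted over the 30. The share of all genes that would pass with a list was not computed. Counts of the 10 genes that passed therefore have no background beside them and do not set these genes apart from others. Top2a followed the 20 proliferation genes, with Pearson r = 0.93 and Spearman rho = 0.90 (p = 1e-05 for both, the smallest the resamples can give; adjusted p = 4.29e-05 and 0.0001). The relation stayed at r = 0.91 without C2 and H1, the libraries farthest out on the list, and at 0.96 with group means subtracted. Within each group of 6 libraries it was 0.95 untreated, 0.97 with trastuzumab, 0.90 with T-DM1 and 0.97 with T-PNU. The proliferation level ran from -0.07 to 0.49 in untreated and from -0.90 to 0.17 in T-PNU libraries.

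The 12 T cell genes went the other way. Against their level Top2a had r = -0.77 (rho = -0.72, adjusted permutation p = 0.0001 and 0.0006), whereas Top2b had r = 0.82 (rho = 0.80, 4.29e-05 and 0.0001) and Xpc r = 0.92 (rho = 0.90, 4.29e-05 and 0.0001). Without the 2 libraries farthest out on the list (B1 and C2), these values were -0.74, 0.72 and 0.88. With group means subtracted they were -0.84, 0.83 and 0.93. Of the 10 genes, 9 passed with the T cell list, 7 positively (Top2b and the repair genes other than Ercc1) and 2 negatively (Top2a and Ercc1), and Top1 did not (adjusted p = 0.445). Xpa no longer passed without B1 and C2 (adjusted p = 0.0754) or with the 20 libraries (0.116). The T cell level itself ranged widely inside every group, from -1.50 to 1.51 untreated and from -0.42 to 1.86 with T-PNU. Between T-PNU and untreated 12 of its 12 genes rose with 20 libraries, where 31.1% of all genes passed. With 24 libraries 0 passed (limma, 3 at an unadjusted p under 0.05). The 20 libraries lack B1 (1.51) and C1 (0.26), the untreated libraries with the highest T cell levels, and keep every T-PNU library. That choice by itself widens the T cell difference. The 7 B cell genes were high in many of the libraries with a high T cell level, at 2.25 in E2, 2.22 in H1, 2.0 in C2, 1.94 in B3 and 1.88 in B1. Their median log2 difference between T-PNU and untreated was 1.06 with 24 libraries, against 0.96 for the T cell genes. None of the 7 passed with either set (0 and 1 at an unadjusted p under 0.05 with 24 and 20), whereas 5 of 5 NK cell genes rose with 20 libraries and 0 passed with 24, with 5 at an unadjusted p under 0.05. The part of any of these cells in the differences between treatments was not tested.

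Ercc1 followed the averaged level of the 12 genes of non-immune tumor and stromal cells. Pearson r was 0.81 and rho 0.65 (adjusted permutation p = 4.29e-05 and 0.00161). Without C1 and C2 r was 0.70, and with group means subtracted 0.73. Within groups r was 0.92 untreated, 0.25 with trastuzumab, 0.75 with T-DM1 and 0.86 with T-PNU. The list level was highest with T-DM1, from 0.15 to 0.31, where Ercc1 was highest, and ran from -0.66 to 0.20 with T-PNU, from -0.50 to 0.06 untreated and from -0.06 to 0.18 with trastuzumab. None of these genes was at 0, and the lowest mean was that of Krt14 at 4.99. Between T-PNU and T-DM1, 6 of its 12 genes fell, led by Col1a1 (-1.62 ± 0.29 SE), and 4 rose (limma, adjusted p under 0.05). The list level thus averages genes that moved both ways, and Ercc1 did not follow each of them. Between the same groups 4 of 5 leukocyte genes and 6 of 10 macrophage and monocyte genes rose. Of all 16996 genes, 2111 rose and 2962 fell there. The part of any of these cells in the Ercc1 difference was not tested. On this list Top2b, Xpa, Ercc4 and Ercc5 were negative (adjusted permutation p from 0.00141 to 0.0221). The relations of Ercc4 and Ercc5 missed the threshold without C1 and C2, with an adjusted permutation p of 0.241 and 0.0772. Xpa no longer passed with the 20 libraries (0.107) or with group means subtracted (0.159), and in the latter setting Ercc1 and Top2b were the 2 of these 5 relations that still passed.

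Against the proliferation list, 8 of the 10 genes passed, Top2a and Ercc1 positively and Top2b, Xpc, Ercc2, Ercc3, Ercc4 and Ercc5 negatively. Those of Ercc1 (adjusted permutation p = 0.132), Ercc3 (0.0507) and Ercc5 (0.0669) missed the threshold without C2 and H1. With all 24 libraries and group means subtracted they passed (adjusted permutation p = 0.000136, 0.0364 and 0.00124). Top1 passed against the proliferation list (r = 0.51, 0.0256) and the non-immune list (r = -0.60, 0.00767) when the 2 outermost libraries of each were left out, and against the non-immune list also with the 20 libraries (r = -0.49, 0.0415).

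**Figure D3:**
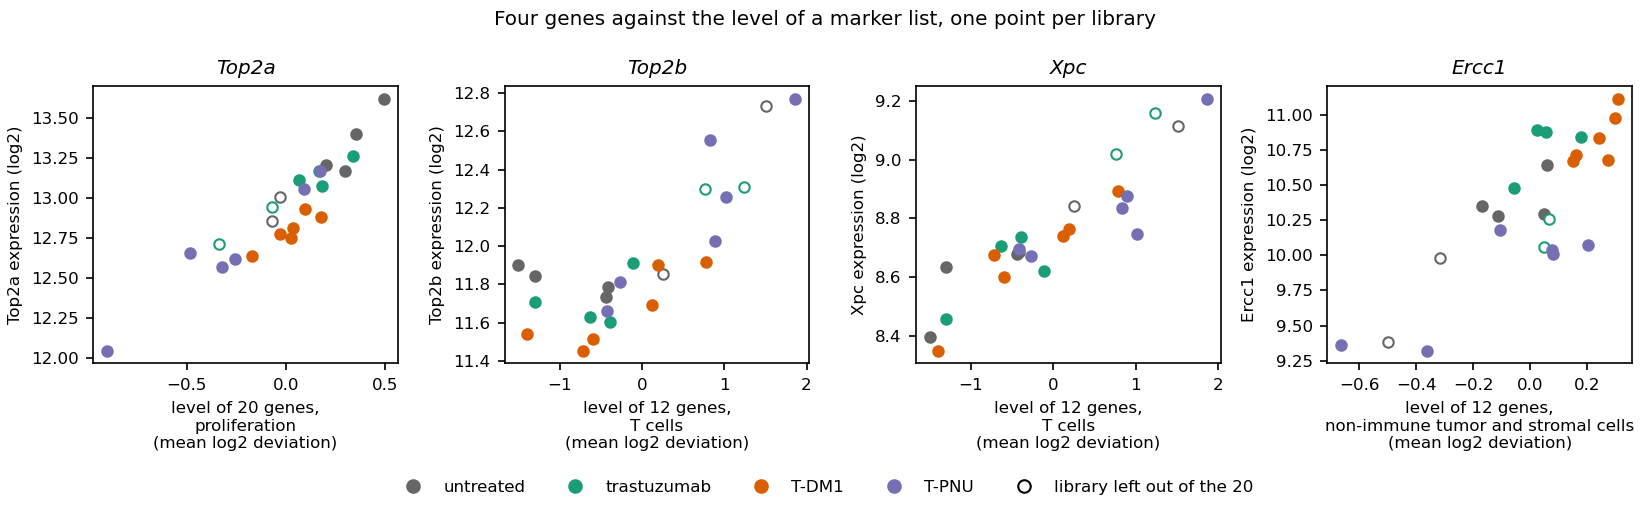
Expression of Top2a, Top2b, Xpc and Ercc1 (y axes, log2) against the level of a marker list (x axes, mean log2 deviation), with 1 point per library colored by group and open points for the 4 libraries left out of the 20. Top2a rises with the level of the proliferation genes (r = 0.93), and Top2b and Xpc with that of the T cell genes (0.82 and 0.92). Ercc1 rises with the averaged level of the tumor and stromal genes (0.81).

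Among themselves the genes fell on opposite sides. These correlations describe the same 24 libraries and carry no test. Of the 15 pairs among Xpc, Xpa, Ercc2, Ercc3, Ercc4 and Ercc5, 14 were positive, up to r = 0.82 for Xpc with Ercc4, and Xpa with Ercc2 had r = -0.02. Ercc1 was negative with all 6 of these genes, from r = -0.74 with Xpa to -0.11 with Ercc2, and with its own partner Ercc4 it had r = -0.71 (rho = -0.77), or -0.63 with group means subtracted and -0.73 in the 20 libraries. Top2a and Top2b had r = -0.52, and -0.73 with group means subtracted. Top2a was negative with 7 of the 9 other genes, most of all with Ercc2 (-0.79), and positive with Top1 (0.30) and Ercc1 (0.35).

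**Figure D4:**
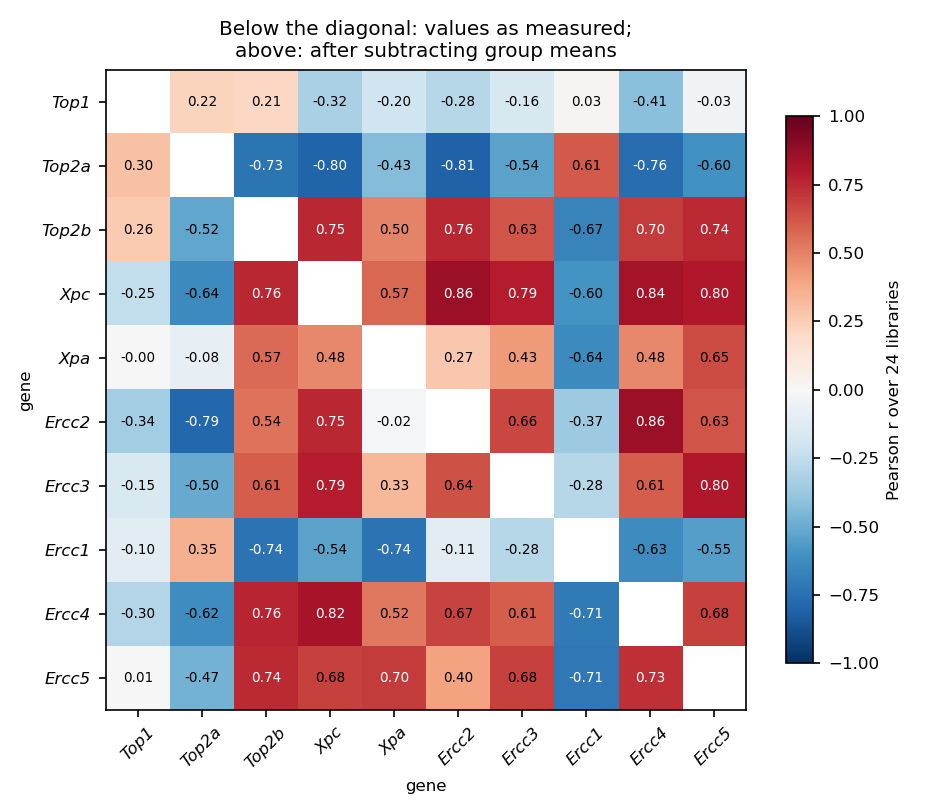
Pearson r over 24 libraries for each pair of the 10 genes, below the diagonal from the values as measured and above it after subtracting group means (color scale from -1 to 1). Blue cells in the column and row of Ercc1 mark its negative values with the other repair genes, such as -0.71 with Ercc4.

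The genes most like each of the 10 in profile were sought by Pearson r over the 24 libraries among the 8418 named genes in the upper part of the expression range, with no statement on shared function. For Top2a these were Kif15 (0.97), a mitotic kinesin, Nuf2 (0.96), Zwilch (0.96) and Kntc1 (0.96), which act at the kinetochore, and Ckap2l (0.95), a spindle protein. For Ercc1 they were Clstn1 (0.98), Gpc1 (0.98), a cell surface glypican, and Fscn1 (0.98), which bundles actin. Top2b was close to Zfp597 and Dhx33 (both 0.98), and Ercc2 to Rexo1 (0.98), Gigyf1 (0.97) and Stk11 (0.97). Xpc was closest to Zfp746 (0.95), Abcf3 (0.94) and Limd2 (0.94), and Ercc4 to Araf (0.94), Vps33b (0.92) and Cyth1 (0.92). Ercc5 was closest to Rsf1 (0.89), Phf20 (0.88) and Arid4a (0.88). The values for the flatter genes were lower, with Ercc3 closest to Nub1 (0.86), Zfp346 (0.84) and Toe1 (0.83), Top1 to Eif3j1 (0.85), Syncrip (0.85) and Tial1 (0.84), and Xpa to Utp14a (0.86), Cdkal1 (0.81) and Zmat2 (0.81).

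Other genes of the same pathways were read from lists by step. Between T-PNU and untreated, 0 of the 52 genes in the 6 lists of topoisomerase, recognition, transcription-coupled, TFIIH, RPA and gap-filling genes passed with 24 libraries (limma). Of the 52 genes, 25 had an unadjusted p under 0.05, a larger share than the 24.8% of all genes. With 20 libraries 31.1% of all genes were called in this comparison, 2672 of the 16996 being lower with T-PNU. In TFIIH, 0 of 8 further subunits passed with 24 libraries, although all 8 had negative log2 fold changes (median -0.21, against 0.01 for all genes), and 5 of 8 fell with 20 libraries, among them Mnat1 of the kinase module (-0.51 ± 0.12 SE, adjusted p = 0.00628). With 20 libraries 8 of 18 gap-filling genes fell and 0 rose (median -0.20, against 0.02 for all genes), among them the clamp loader subunit Rfc4 (-0.51 ± 0.14, 0.0118), and the highest and lowest values with 24 libraries were those of Pcna (0.05) and Rfc4 (-0.43, 0.0732). The 20 proliferation genes all fell with 20 libraries (median -0.62), and 0 passed with 24 (median -0.50, 18 at an unadjusted p under 0.05). B1 (-0.07) and C1 (-0.03), left out of the 20, had the lowest proliferation levels of the untreated libraries.

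Among the other topoisomerase genes with 20 libraries, Blm (-0.52 ± 0.11 SE, adjusted p = 0.00456), the helicase partner of topoisomerase III, and Tdp1 (-0.44 ± 0.09, 0.00483), which frees trapped topoisomerase I, fell with T-PNU against untreated, and Top3a (0.39 ± 0.11, 0.0158) rose (limma). In damage recognition Ddb1 (-0.43 ± 0.11, 0.0114) and Cul4a (-0.39 ± 0.09, 0.00704) fell and Ddb2 (0.82 ± 0.28, 0.0342), which binds ultraviolet lesions, rose. In transcription-coupled repair Hmgn1 (-0.44 ± 0.08, 0.00347) fell and Polr2a (0.70 ± 0.15, 0.00514) rose, and of RPA only Rpa3 (-0.54 ± 0.13, 0.00863) fell among its 3 subunits. With 24 libraries 0 of these genes passed. The adjusted p was then 0.0624 for Blm, 0.312 for Top3a, 0.155 for Ddb1, 0.307 for Ddb2, 0.0763 for Hmgn1, 0.0580 for Polr2a and 0.0885 for Rpa3.

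Between T-PNU and T-DM1 with 24 libraries, 29.8% of all genes passed and the median of all genes was 0.03 (limma). Of the 52 genes in the 6 lists, 4 rose and 12 fell, together a share close to that of all genes. Among the 8 other topoisomerase genes 2 rose (Top3a 0.40, Rmi1 0.32) and 2 fell (Tdp1 -0.33, Top1mt -0.28). Of the recognition genes 3 of 8 fell, among them Ddb1 (-0.41) and Cul4a (-0.27), of TFIIH 3 of 8 (Mnat1 -0.42, Gtf2h4 -0.34, Gtf2h5 -0.23), and of the gap-filling genes 4 of 18 fell, led by the polymerase delta subunit Pold2 (-0.57), and 1 rose. Usp7 rose in the list of 7 transcription-coupled repair genes (0.34), 0 of 3 RPA genes passed with 1 at an unadjusted p under 0.05, and 5 of 20 proliferation genes fell, led by Plk1 (-0.53). With quantile normalization 2 of 8 TFIIH, 2 of 18 gap-filling and 3 of 20 proliferation genes fell in this comparison and no gap-filling gene rose. It gave 3 rises and 1 fall among the topoisomerase genes, and 0 rises and 1 fall in transcription-coupled repair, so that Usp7 was not called.

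**Figure D5:**
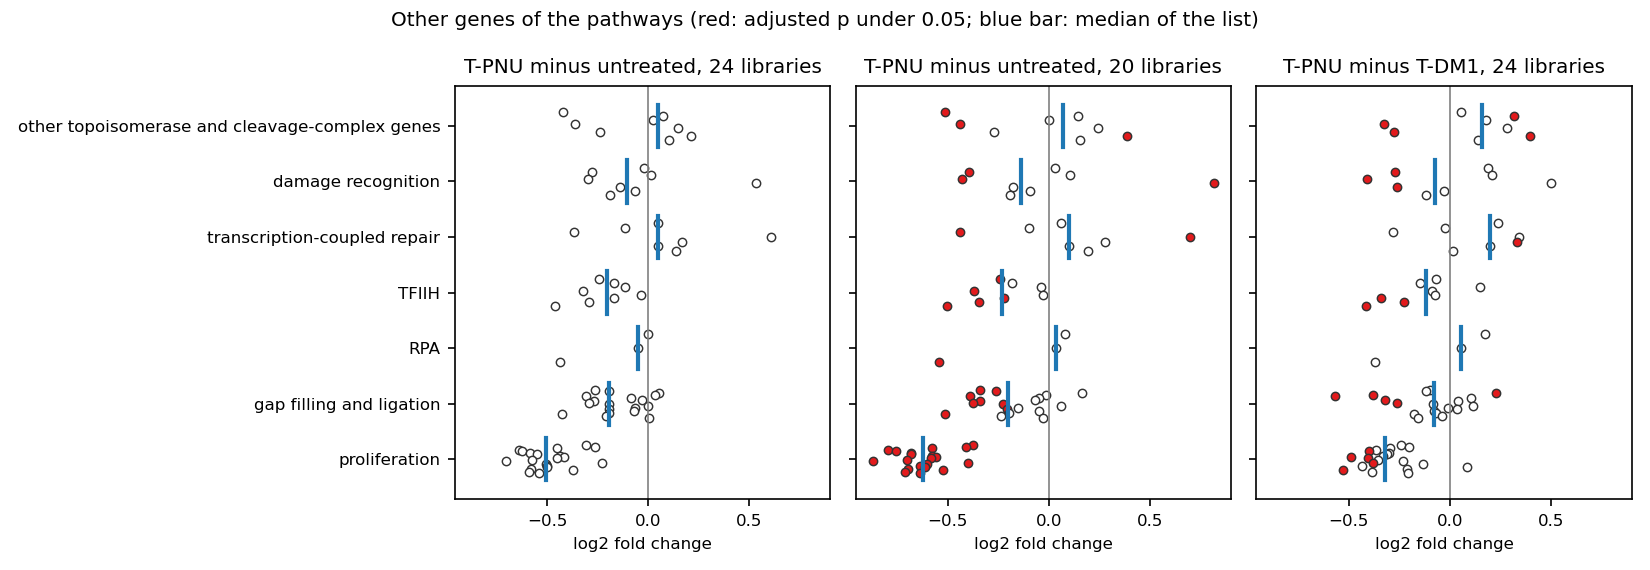
Log2 fold changes (x axis) of the other pathway genes and the proliferation genes by list, with 1 point per gene, red where the adjusted p was under 0.05 and blue bars for list medians. The 20 proliferation genes lie below 0 between T-PNU and untreated, with a median of -0.50 for 24 libraries and -0.62 for 20.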

How the data were processed

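RNA-seq values of 24 libraries, 6 per group by the labelled agent, were analysed as deposited. The authors aligned reads with STAR 2.4.2a (mm10, per the submitters' processing notes), counted them by strand per gene with featureCounts (Subread 1.5.0), removed genes with few counts and deposited log2 values normalized for library size. The transformation is not given in the sources used here, and if it shrank values gene by gene, changes of genes with few reads are understated. Counts were not recovered, so the depth is unknown and no count test was run. The limma package (version 3.58.1, R 4.3.3) served for 1 linear model per gene over 16996 genes and 4 groups, moderated by eBayes with a trend, with Benjamini-Hochberg adjustment and a threshold of 0.05. Correlations used permutation tests (100000 resamples, two-sided). Scripts in Python 3.11.15 (scipy 1.17.1, matplotlib 3.10.9) were tested on simulated data. Positions came from GENCODE M21 (GRCm38). The 10 genes, the lists and the tests were chosen with earlier results of these data known. Named genes were the 10, the 3 genes most like each (5 for Top2a), and from each list up to 4 genes with the largest change among those called between T-PNU and untreated or T-DM1, otherwise the highest and lowest; Ddb2, Polr2a, Hmgn1 and other genes called with the 20 libraries alone were named after their values were seen. Alternatives were the 20 libraries, quantile normalization, array weights, testing only genes with a mean over the median, separate fits for each pair of groups, no trend, a false discovery rate under 0.01 with a change over 2-fold, and each library left out. Of the genes this rule names, 2 are not reported here.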

Additional observations from a re-analysis of the deposited data

Results flagged for a closer look

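In 40 groups (10 genes in 4 treatments), 2 had a library far from the others by Dixon's ratio at the 95% level, about as many as chance gives at 1 in 20. Top2b was 12.73 in untreated library B1, against 11.90 in the next highest (ratio 0.835); B1 also had the highest T cell level of the untreated libraries. Xpa was 8.19 in T-DM1 library G3, against 8.05 in the next highest (ratio 0.686).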

How the results depend on the processing

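No paired analysis was possible because the replicate numbers follow accession order and pair no mice. With the 20 libraries the number of the 10 genes called was 3 for T-PNU against untreated, 5 against trastuzumab and 5 against T-DM1, 0 for T-DM1 against untreated and 6 in the F test, against 0, 0, 2, 2 and 2 with 24. Array weights gave 1, 3, 5 and 4 in the first 4 of these comparisons, where 5827, 2256, 7583 and 3297 of all 16996 genes passed. For T-PNU against T-DM1, quantile normalization gave 4 (Ercc1, Xpa, Ercc4 and Ercc5, with Top2b lost), fitting only the 2 groups 5, and a false discovery rate under 0.01 with a change over 2-fold 1. Among all genes 4948, 5581 and 325 passed in these settings. For T-DM1 against untreated, fitting only the 2 groups gave 1, genes above the median 1 and the stricter threshold 0. Among all genes 621, 749 (of 8498 tested) and 26 passed there. Quantile normalization gave 4 in the F test. Leaving out 1 library at a time gave 0 to 1, 0 to 1, 1 to 4, 0 to 3 and 1 to 4 genes in the 5 tests. Among all 16996 genes these fits called 0 to 2929, 0 to 81, 3139 to 5881 and 419 to 1626 in the first 4. The causes were not tested. Of 446 refits of 15 gene differences, 377 kept their side of the threshold, 36 lost the call and 33 gained it, with no change of direction. Depth is unknown, so no counting interval is given.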
